A study of Mus musculus with 6 samples.

Results

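The genes of growth hormone signalling in liver are described here: the growth hormone receptor Ghr, the kinase Jak2, the transcription factors Stat3, Stat5a and Stat5b, the feedback inhibitors Socs1, Socs2, Socs3 and Cish, and the repressor Bcl6. They were chosen by name, as all probe sets of these 10 genes that the platform's annotation gives a single symbol. This made 26 of 34945 such probe sets and 10 of 18193 genes, and all 10 genes had a probe set above the filter on dim signals. RNA came from livers of male mice aged 8 weeks on a mixed background, fed standard chow and then fasted for 24 h, and was hybridized to Affymetrix mouse arrays. By label, 3 arrays are Mig-6 f/f and 3 are Mig-6 d/d, so age, sex, diet and fast were shared by both groups. Mig-6 is the protein of Errfi1, an inhibitor of the epidermal growth factor receptor. The promoter or cell type that drove the deletion, and whether each array holds a separate animal, are not given in the sources used here, so a p-value here rests on the spread among these arrays, which may be technical.

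Growth hormone binds its receptor on hepatocytes and activates the receptor-bound kinase JAK2, which phosphorylates STAT5A and STAT5B. The STAT proteins enter the nucleus and switch on growth genes such as Igf1 together with inhibitors of the pathway itself. Cish and the SOCS proteins are these inhibitors: they bind phosphorylated receptors or the kinase and shut the signal down, and SOCS3 mainly limits the interleukin-6 family, which acts through STAT3. Growth hormone is released in pulses in males, and the pattern of pulses sets which liver genes differ between the sexes. Bcl6 is a repressor that competes with STAT5 for binding sites.

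All 6 arrays carried the signal of hepatocytes. The 5 of 6 hepatocyte markers with a probe set lay above the dim filter, and their summed intensity ran from 109106 to 111261 in f/f and from 109513 to 111026 in d/d. Errfi1 read 5371 to 5686 in f/f and 59.65 to 68.05 in d/d, although where its probes lie relative to the deleted part is not given. Deposited median intensities ran from 55.6 to 65.4. One array, f/f replicate 3, differed from the rest, with 18S ribosomal RNA controls at 3807 against 218 to 455 on the other arrays and a mean correlation of 0.963 against 0.978 to 0.981. It also had the highest median intensity.

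None of the 10 genes passed the test of genotype. Of the 10, 0 had an adjusted p under 0.05 (limma, p-values adjusted by Benjamini-Hochberg over 13718 genes), which 0.0948% of all genes had, and 1, Socs3, had an unadjusted p under 0.05, against 7.84% of all genes. The groups overlapped for all 10, while 14.7% of all genes had groups apart. A total of 5 genes had a positive and 5 a negative difference, with a median of -0.014 against -0.015 over all genes tested. Differences are d/d minus f/f of quantile-normalized log2(intensity + 16), with the standard error of limma and n = 3 per group, a scale on which changes of dim genes come out too small. Of the 26 probe sets, 0 passed in a limma fit over all 34945 probe sets, where 0.0744% did. Among these 26, 3 (11.5%) had an unadjusted p under 0.05, against 6.81% of all probe sets, and 4 (15.4%) had groups apart, against 13.1%. The lowest difference was -0.75, for Socs3, and the highest 0.41, for Bcl6.

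**Figure D1:**
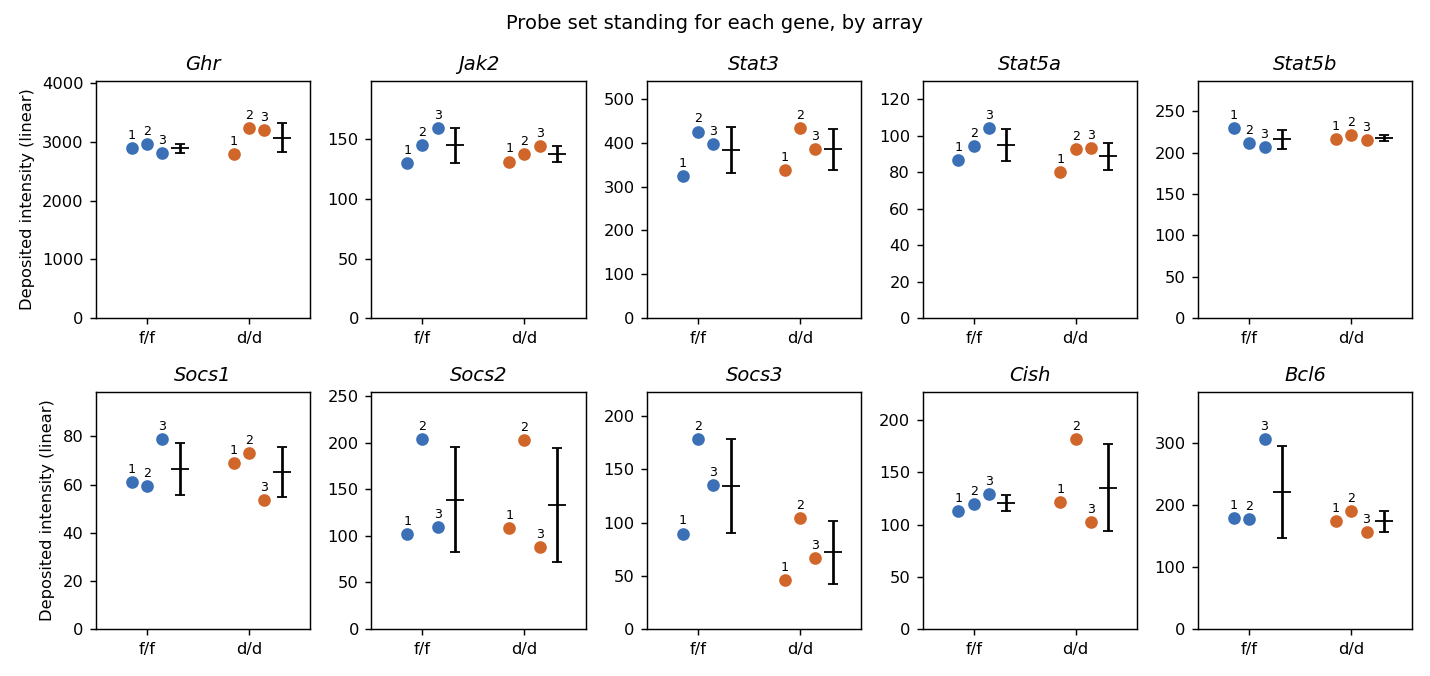
Deposited intensity (linear axis from 0) of the probe set standing for each of the 10 genes on the 3 f/f (blue) and 3 d/d (orange) arrays, numbered by replicate, with the mean and SD of each group in black. Socs3 lies lower in d/d on average, Socs2 is high on replicate 2 of both genotypes, and Bcl6 is high on f/f replicate 3.

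**Figure D2:**
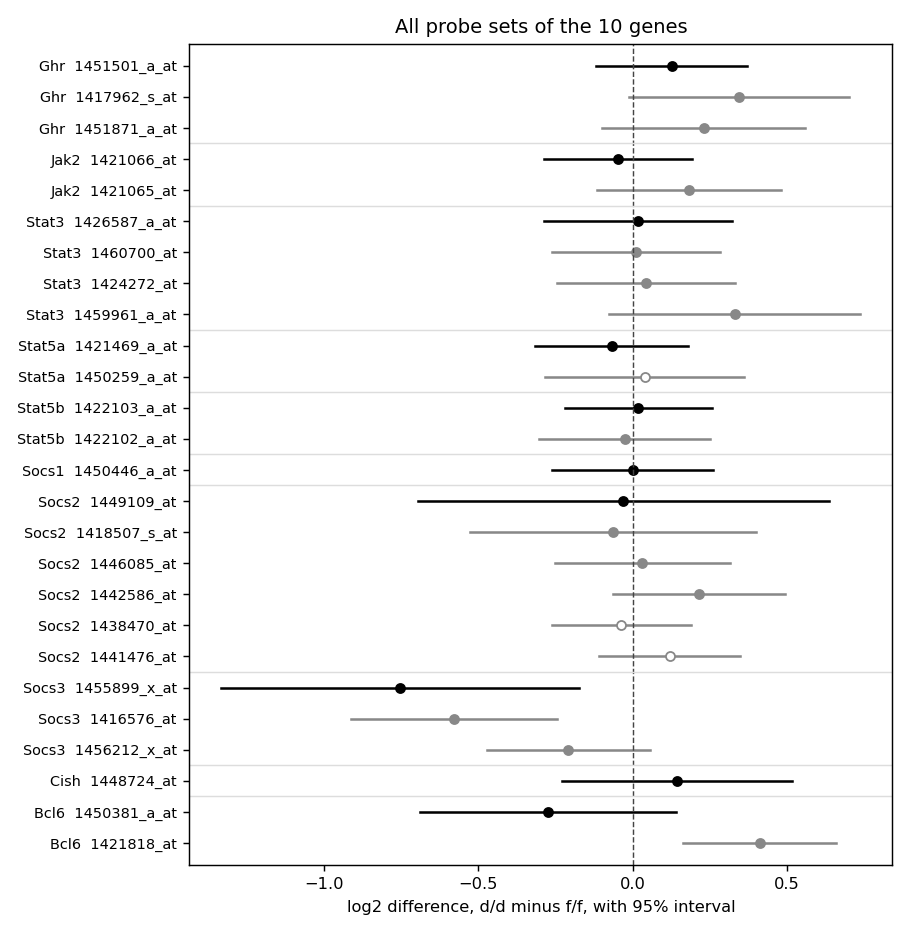
Log2 difference, d/d minus f/f, of all 26 probe sets with 95% intervals from the fit over all probe sets. Black marks the probe set standing for a gene, grey the others, and open circles the 3 probe sets under the dim filter. The intervals of 2 Socs3 probe sets and 1 Bcl6 probe set lie clear of 0, before any adjustment for the number of probe sets.

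Socs2 and Socs3 varied most within both genotypes, Cish within d/d only and Bcl6 within f/f only. The log2 SD was 0.52 in f/f and 0.53 in d/d for Socs2 and 0.43 and 0.47 for Socs3. For Cish it was 0.35 in d/d but 0.031 in f/f, and for Bcl6 0.40 in f/f but 0.11 in d/d. For the other 6 genes it was at most 0.19, the value of Stat3 in f/f.

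The receptor was bright in both genotypes and passed on none of its probe sets. Ghr read 2899.6, 2969.9 and 2813 in f/f and 2788, 3228 and 3204 in d/d on the probe set that stands for it. The d/d values of replicates 2 and 3 lay above all f/f values and that of replicate 1 lay below them. Mean intensities were 2894 ± 78.4 and 3073 ± 247 (SD, n = 3), and the log2 difference was 0.13 ± 0.11 (limma adjusted p = 0.827), with a 95% interval from -0.12 to 0.37. In ratios this interval runs from 0.92 to 1.30, so a larger change of the probe set's signal lies outside it. The other probe sets of Ghr also had positive differences. Probe set 1417962_s_at read 2535, 3019 and 2065 in f/f and 2685, 3404 and 3375 in d/d. Its difference was 0.34 ± 0.16, with an interval in ratios from 0.992 to 1.63. It was 0.21 without f/f replicate 3, the lowest of the 6 arrays. Probe set 1451871_a_at had 0.23 ± 0.15, and 0.10 without that array (limma adjusted p = 0.738 and 0.843 with all arrays). Under the platform's naming, the endings _s_at and _x_at mark probe sets that can bind related transcripts, and _a_at those that bind several transcripts of 1 gene.

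Jak2, the kinase bound to the receptor, read 129.9, 145.4 and 158.9 in f/f and 131.3, 137.5 and 143.9 in d/d. The d/d values fell within the range of f/f, and the log2 difference was -0.047 ± 0.10 with an interval from -0.29 to 0.19. Its second probe set, 1421065_at, had 0.18 ± 0.13 (limma, adjusted p = 0.874), so the sign depends on the probe set. That of 1421065_at was 0.097 without f/f replicate 3 and 0.092 without d/d replicate 2.

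The STAT genes differed by less than their standard errors on the probe sets that stand for them. Stat5b, which carries most growth hormone signal in male liver, read 229, 211 and 207 in f/f and 216, 221 and 215 in d/d. The d/d arrays lay close together and inside the f/f range. The log2 difference was 0.019 ± 0.10, with an interval in ratios from 0.859 to 1.20. Stat5a, its close paralogue, read 86.8, 94.4 and 104.1 in f/f and 80.0, 92.6 and 93.5 in d/d, a difference of -0.068 ± 0.11 (interval -0.32 to 0.18). The second probe sets of Stat5b and Stat5a had -0.026 ± 0.12 and 0.039 ± 0.14, that of Stat5a under the dim filter. Stat3, the factor of interleukin-6 signalling, read 324, 426 and 398 in f/f and 338, 433 and 385 in d/d. Replicate 1 was the lowest and replicate 2 the highest in each genotype, and the difference was 0.018 ± 0.14 (limma adjusted p = 0.981). The other 3 Stat3 probe sets had 0.012 ± 0.12, 0.044 ± 0.13 and 0.33 ± 0.18. The last of these, 1459961_a_at, read 45.4 and 44.9 on f/f replicates 1 and 3 and 70.8 on f/f replicate 2, against 56.8 to 80.4 in d/d. Its difference was 0.19 when f/f replicate 3 was removed and 0.52 when replicate 2 of that genotype was. Stat5b, Stat5a and Stat3 are consecutive protein-coding genes on mouse chromosome 11 (RefSeq, GRCm38.p6), and 0 of the 3 passed.

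The 10 genes were searched for the STAT binding motif TTCNNNGAA, which reads the same on both strands. The search covered RefSeq windows from 250 bases before to 50 bases after each annotated start (GRCm38.p6). Of the 10 genes, 9 matched, all but Socs2, with 13 windows. Cish, Socs3 and Bcl6 held the motif, in 4 windows, and 8.3% of all 32851 windows did. At least 3 copies, as in a window of Bcl6, stood in 0.0335% of all windows, and at least 2, as in Cish, in 0.457%. All sites found in these 13 windows are shown, whatever the values of the genes. A relation between the motif and the spread of values was not tested. Motifs are in capitals, 5′ to 3′ on the gene's strand. A match describes these letters and is no evidence of binding.
Cish, chr9:107296654-107296683, plus strand, first motif at the start: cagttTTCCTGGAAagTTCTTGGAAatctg
Socs3, chr11:117969502-117969530, minus strand, 154 bases before the start: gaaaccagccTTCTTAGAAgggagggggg
Bcl6 upstream start, chr16:23988952-23988980, minus strand, 118 bases before it: agcaaattagTTCTCAGAAttccagaggc
Bcl6 downstream start, chr16:23981433-23981461, minus strand, 168 bases before it: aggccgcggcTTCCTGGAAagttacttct
Bcl6 downstream start, chr16:23981387-23981415, minus strand, 122 bases before it: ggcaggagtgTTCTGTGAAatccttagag
Bcl6 downstream start, chr16:23981353-23981381, minus strand, 88 bases before it: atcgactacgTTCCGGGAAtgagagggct

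Cish, whose tandem motif is shown above, is a classic early target of STAT5 and blocks STAT5 at the receptor. It read 113, 119.5 and 129 in f/f and 122, 182 and 102 in d/d. A single array, d/d replicate 2, stood above all others, and d/d replicate 3 was the lowest. The log2 difference was 0.14 ± 0.17 (limma adjusted p = 0.873) with an interval from -0.25 to 0.54, and it was -0.054 without d/d replicate 2.

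Socs2, the main brake on growth hormone receptor signalling, read 102, 204 and 109.9 in f/f and 108, 203 and 88.1 in d/d. Replicate 2 of each genotype stood far above the others, and the remaining 4 arrays lay between 88.1 and 109.9. The log2 difference was -0.030 ± 0.31 with an interval in ratios from 0.594 to 1.61, the widest of the 10. It became 0.27 without f/f replicate 2 and -0.33 without d/d replicate 2. Probe set 1418507_s_at also read highest on f/f replicate 2, at 133.5 against 71.8 to 93.1 on the other arrays, and had -0.063 ± 0.21. The other 4 Socs2 probe sets were dim, at 23.9 to 68.8, with 2 of them under the filter. Of these, 1441476_at, under the filter, had groups apart at 23.9 to 25.7 in f/f and 26.8 to 29.0 in d/d, with a difference of 0.12 ± 0.10.

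Socs1, an inhibitor of JAK kinases downstream of interferon, has 1 probe set here. It read 60.9, 59.2 and 78.9 in f/f and 69.0, 73.3 and 53.7 in d/d, close to the dim filter at 48.3, with overlapping groups. The difference was 0.00099 ± 0.12 (interval -0.26 to 0.27).

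Socs3 had the lowest difference of the 10 genes, and all 3 of its probe sets were lower in d/d, although none passed. Probe set 1455899_x_at, which stands for the gene, read 89.7, 178 and 135 in f/f and 46.1, 104 and 66.2 in d/d. The groups overlapped because d/d replicate 2 lay above f/f replicate 1. Mean intensities were 134 ± 44.4 and 72.3 ± 29.6 (SD, n = 3), and the log2 difference was -0.75 ± 0.27, 1.68 times lower (limma adjusted p = 0.522). With 1 array left out the lowest value was -0.99, when d/d replicate 2 was removed, and the highest -0.52, when d/d replicate 1 was, and it was -0.51 with the average of the 3 probe sets. Probe set 1416576_at read 90.95, 95.4 and 143 in f/f and 56.1, 79.0 and 64.6 in d/d, with groups apart. Its difference was -0.58 ± 0.15 and -0.45 without f/f replicate 3, its highest array (adjusted p = 0.327 and 0.249, limma). Probe set 1456212_x_at read 67.4, 83.4 and 78.1 against 57.6, 70.4 and 60.3, a difference of -0.21 ± 0.12. Its groups were apart after normalization and overlapped as deposited.

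Some genes of the acute phase, which interleukin-6 and STAT3 induce in hepatocytes, had the same order of arrays as Socs3 probe set 1455899_x_at. From highest to lowest, the Socs3 probe set ordered the arrays as f/f replicate 2, f/f replicate 3, d/d replicate 2, f/f replicate 1, d/d replicate 3 and d/d replicate 1. This exact order was held by 14 of 13718 genes tested (0.102%), Socs3 included, and by 4 of the 20 acute phase targets tested, Saa1, Saa2, Orm2 and Lbp. This was noticed after the values were seen and describes 6 arrays. Of the other Socs3 probe sets, 1456212_x_at had this order as deposited and 1416576_at did not. The latter was highest on f/f replicate 3, at 143, with f/f replicate 1 (90.95) above d/d replicate 2 (79.0). Saa1, serum amyloid A, read 4382, 25385 and 14149 in f/f and 998, 10302 and 2743 in d/d, a difference of -1.90 ± 0.85. Orm2, an orosomucoid, read 178, 3043 and 532 against 73.5, 272 and 84.6, and Lcn2, lipocalin, 394, 3078 and 1319 against 177, 915 and 627, with differences of -2.31 ± 0.89 and -1.29 ± 0.76 (limma adjusted p = 0.65, 0.559 and 0.767 for the 3 genes). Single arrays moved these values widely: Saa1 had -1.10 when d/d replicate 1 was removed and -2.77 when replicate 2 of that genotype was. When f/f replicate 2 was removed, Orm2 had -1.24 and Lcn2 -0.60, and on removal of f/f replicate 1 they had -3.20 and -2.05. The array of f/f replicate 2 was the highest for 16 of the 20 targets, while the lowest was f/f replicate 1 for 10, d/d replicate 1 for 8 and f/f replicate 3 for 2. Haptoglobin, Hp, had -0.037 ± 0.15. The targets tested had 7 positive and 13 negative differences, against 6376 and 7342 of all genes. Of them 0 passed and 1 had an unadjusted p under 0.05 (5%, against 7.84% of all genes). The median was -0.057 against -0.015 over all genes, and 0.089 when f/f replicate 2 was removed. Markers of Kupffer cells, the liver's macrophages, were lower in d/d for 10 of 11, with 0 past the threshold. Their summed intensity was 3110.0, 3822 and 4368 in f/f and 2672, 3411 and 2949 in d/d, and none of them was under the dim filter. Markers of stellate cells had summed intensities of 2786 to 3104 in f/f and 2236 to 2739 in d/d, so these sums were apart between the genotypes, with 4 of the 8 markers lower in d/d and 0 past the threshold. The part of either cell type in the Socs3 values was not tested, and in bulk tissue fewer cells of a type and less RNA per cell cannot be told apart.

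**Figure D3:**
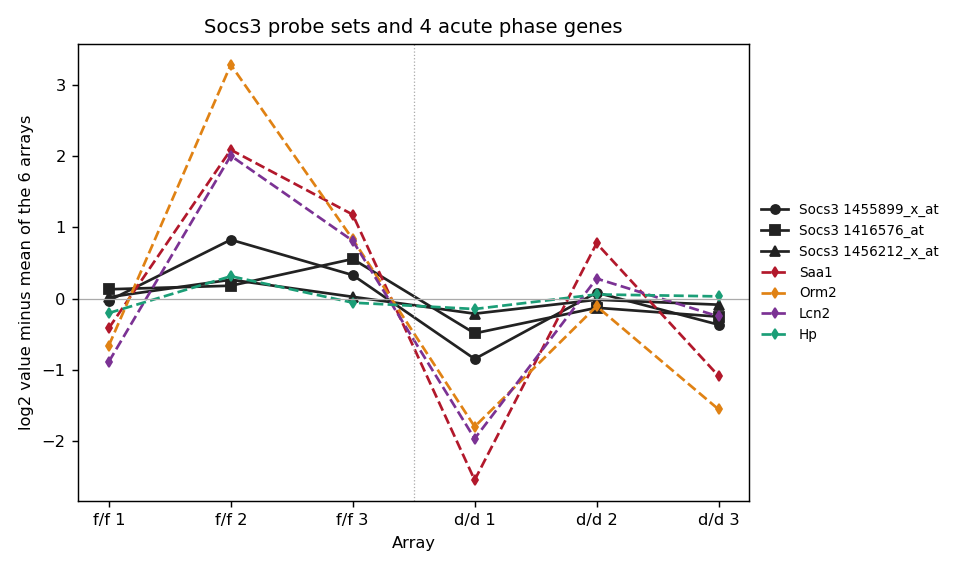
Log2 values of the 3 Socs3 probe sets (black) and of Saa1, Orm2, Lcn2 and Hp (colours) on each array, minus the mean of the 6 arrays of that probe set; lines join the values of 1 probe set and imply no order of the arrays. Saa1, Orm2, Lcn2 and Socs3 probe set 1455899_x_at are highest on f/f replicate 2 and lowest on d/d replicate 1.

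Bcl6 gave opposite signs on its 2 probe sets. Probe set 1450381_a_at, which stands for the gene, read 178, 177 and 306 in f/f and 174, 191 and 156 in d/d. The f/f array of replicate 3 was far above the other 5, which lay between 156 and 191. The difference was -0.27 ± 0.19 (limma adjusted p = 0.802), and -0.044 without f/f replicate 3. That array also had the highest summed intensity of Kupffer cell markers, 4368, and of lymphocyte markers, 674 against 439.9 to 609 on the other arrays. Its sums of hepatocyte markers (111261), cholangiocyte markers (269.5) and skeletal muscle markers (410.0) were the highest too, as was its median intensity. Those of neutrophil, stellate cell, endothelial cell, adipocyte and pancreas acinar cell markers were not. Krt19, Krt7 and Cftr of the cholangiocyte markers and Tnnt3 of the muscle markers were under the dim filter. Of the 7 lymphocyte markers with a probe set, Cd3g and Cd79b were under the dim filter, and the part of any of these in the Bcl6 value was not tested.

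Probe set 1421818_at of Bcl6 was higher in d/d. It read 89.4, 88.5 and 105.9 in f/f and 126, 121 and 140.4 in d/d, so the groups were apart. Mean intensities were 94.6 ± 9.77 and 129 ± 9.88 (SD, n = 3), and the difference was 0.41 ± 0.11, 1.33 times higher (interval 0.16 to 0.66). It did not pass over all probe sets (limma adjusted p = 0.361). The difference stayed between 0.34 and 0.47 with 1 array left out, and was 0.43 without f/f replicate 3. Both probe sets are annotated to 1 accession, so the annotation gives no ground to prefer either, and their average had 0.069.

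**Figure D4:**
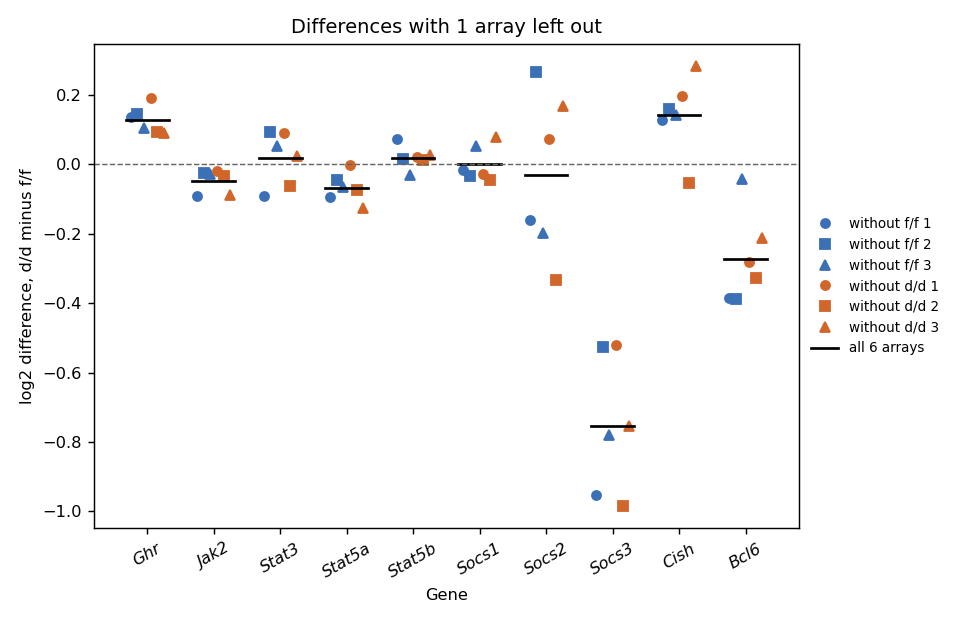
Log2 difference, d/d minus f/f, of the 10 genes with all 6 arrays (black line) and with each array left out (points; colour gives the genotype and shape the replicate of the array removed). Socs2 runs from -0.33 to 0.27 and crosses 0, Socs3 stays between -0.99 and -0.52, and Bcl6 moves to -0.044 without f/f replicate 3.

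Other parts of the JAK-STAT pathway also gave no calls. Of 21 components tested of 23 listed, 0 passed by limma and 5 reached an unadjusted p under 0.05 (23.8%, against 7.84% of all genes). Differences were positive for 15 and negative for 6, against 6376 and 7342 of all 13718 genes. The median of the components was 0.055, against -0.015 over all genes, and -0.0070 when f/f replicate 3 was removed. Groups were apart for 7 of the 21 (33.3%, against 14.7% of all genes). All gene lists here were chosen with earlier results of these data known, so such shares are descriptions only. Jak1, a kinase of cytokine receptors, read 358, 393 and 295 in f/f and 409, 416 and 416 in d/d, a difference of 0.26 ± 0.13, and 0.14 without f/f replicate 3, its lowest array. Tyk2, another such kinase, had 0.0011 ± 0.11, and Ptpn11, a phosphatase of receptor signalling, 0.049 ± 0.13, while its probe sets ranged from -0.57 to 0.049. Socs7, picked after its values were seen, read 103.7, 99.3 and 83.5 against 142, 133 and 143, a difference of 0.50 ± 0.14 (limma adjusted p = 0.316), and its 4 probe sets ranged from -0.040 to 0.50. The difference was 0.37 without f/f replicate 3, its lowest array, and 0.18 with the average of its probe sets.

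Among cytokine receptor chains, 14 of 17 were tested, 0 passed by limma and 3 reached an unadjusted p under 0.05 (21.4%, against 7.84% of all genes). There were 7 differences of each sign, with a median of 0.0085 against -0.015 over all genes. Il6ra, which binds interleukin-6, read 127, 150.5 and 129.9 in f/f and 174, 219.8 and 193 in d/d, with groups apart. Its difference was 0.50 ± 0.13 (limma adjusted p = 0.289), opposite in sign to that of Socs3, and its other probe set had 0.020. Il6st, the shared signalling chain gp130, had -0.055 ± 0.15, and -0.21 without f/f replicate 3.

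None of the growth hormone targets tested outside the 10 genes passed. Igf1, the hormone through which liver growth hormone signalling acts on other tissues, read 6185, 6763 and 6497 in f/f and 6129, 6066 and 6386 in d/d. Its difference was -0.0041 ± 0.098, with an interval in ratios from 0.853 to 1.17. The 4 probe sets of Igf1 ranged from -0.24 to -0.0041 and their average had -0.13. Igfals, which stabilizes IGF-1 in blood, had -0.085 ± 0.16, and Egfr, the receptor that Mig-6 binds, -0.066 ± 0.19. The 7 probe sets of Egfr ranged from -0.82 to -0.0036 and their average had -0.31. Without f/f replicate 3 the differences of Igfals and Egfr were 0.057 and 0.15. Of the 5 targets tested, 0 passed by limma, 0 reached an unadjusted p under 0.05, and all 5 were lower in d/d. Over all 13718 genes 7342 were lower, with a median of -0.015. The median of the 5 targets was -0.085, with -0.23 when f/f replicate 1 was removed and -0.013 when f/f replicate 3 was.

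Genes that growth hormone pulses set higher in male liver gave no calls either: of 18 tested, 0 passed by limma. An unadjusted p under 0.05 was reached by 5 (27.8%, against 7.84% of all genes). Differences were negative for 12 and positive for 6, against 7342 and 6376 of all 13718 genes. Over all genes the median was -0.015, and over these 18 it was -0.12. This median was -0.22 when f/f replicate 2 was removed, -0.030 when replicate 3 was and -0.019 with array weights. Cyp7b1, an oxysterol hydroxylase, read 5224, 3304 and 4356 in f/f and 2935, 2009 and 2077 in d/d, with groups apart and a difference of -0.85 ± 0.21 (limma adjusted p = 0.272). Its 3 probe sets ranged from -0.85 to -0.22 and their average had -0.64. Hsd3b5, a steroid dehydrogenase, had 0.45 ± 0.29, and Elovl3, a fatty acid elongase, -0.83 ± 0.41. On removal of f/f replicate 3 Hsd3b5 had 0.76 and Elovl3 -0.41, and on removal of f/f replicate 2 they had 0.22 and -1.35. Moxd1, a monooxygenase-like protein picked after its values were seen, read 165, 266 and 179.9 against 68.5, 73.5 and 37.3. Its difference was -1.53 ± 0.23 (limma adjusted p = 0.0878, with a range of 0.00743 to 0.312 across the alternatives), and it passed without f/f replicate 3 at -1.64 (adjusted p = 0.0322). Moxd1 had the lowest difference of the 18. Car3, also picked after its values were seen, had the highest, 0.52 ± 0.18 (limma adjusted p = 0.497), with groups apart. The 4 probe sets of Car3 ranged from 0.52 to 1.06.

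Of genes higher in female liver, 12 were tested, 0 passed by limma and 0 reached an unadjusted p under 0.05. Over all 13718 genes 7342 were lower and 6376 higher, with a median of -0.015. Of these 12, 9 were lower and 3 higher, with a median of -0.12. The median was -0.019 without d/d replicate 3, -0.18 without f/f replicate 3 and -0.032 with no dim filter. Cux2, a transcription factor of female liver, had -0.43 ± 0.21, and -0.18 without f/f replicate 3. Its 3 probe sets ranged from -0.43 to -0.033 and their average had -0.24. Cyp2b9, a cytochrome P450 that male growth hormone pulses repress, was under the dim filter by its mean and was tested only in the fit over all probe sets. It read 21.7, 18.9 and 19.4 in f/f and 77.8, 44.8 and 174 in d/d. All d/d values lay above all f/f values, and they differed by several times among themselves. The log2 difference was 1.51 ± 0.34 (limma adjusted p = 0.237), and it was 1.06 to 1.89 with 1 array left out. Cyp2b13, a related gene also under the filter, had -0.024 ± 0.11.

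**Figure D5:**
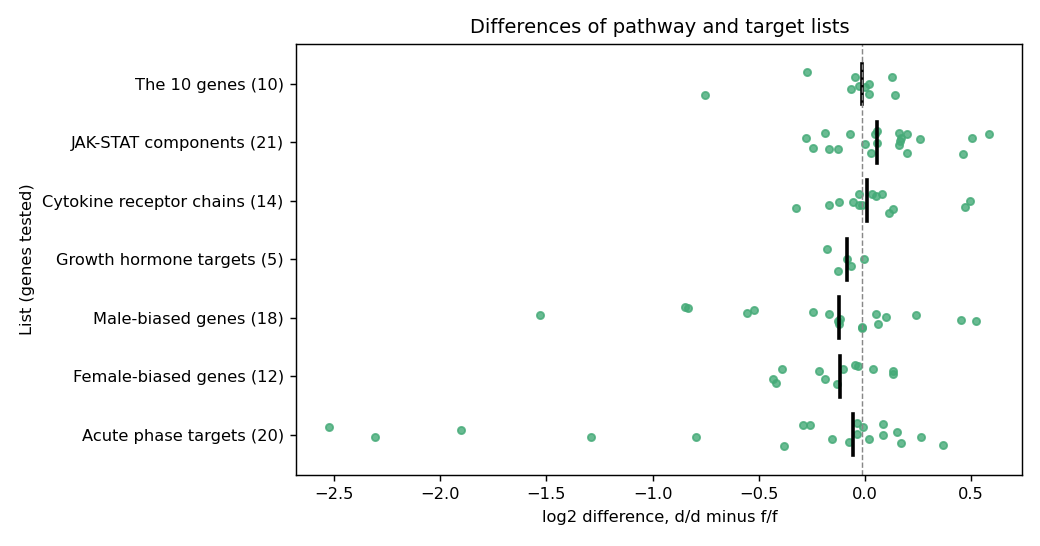
Log2 differences, d/d minus f/f, of the 10 genes and of 6 lists of pathway and target genes (points; vertical jitter only separates them), with the median of each list in black and that of all 13718 genes as a dashed line. List medians lie between -0.12 and 0.055, and 0 of these genes passed in limma.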

How the data were processed

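Per the labels' protocols, biotin-labelled total RNA was hybridized to Affymetrix arrays. The authors deposited 1 linear intensity for each of 45101 probe sets on 6 arrays; the authors' summarization, background correction and scaling, and the genome build, are not given in the sources used here. The platform annotation gave 34945 probe sets 1 symbol, 932 several and 9160 none; 64 were controls. Members and gene lists were chosen with earlier results of these data known.

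Intensities were taken as log2(intensity + 16) and quantile normalized. Each gene was represented by its brightest probe set on average, and probe sets in the lowest 40% (intensity under 48.3) were left out, leaving 13718 genes. Limma 3.58.1 (lmFit, eBayes; R 4.3.3) gave the two-sided test of genotype, without covariates, with Benjamini-Hochberg adjustment and a threshold of 0.05; a second fit used all single-symbol probe sets. The test was checked on simulated data. Named genes are the 10 members, fixed examples from each list, and genes said to be picked after their values were seen; some fixed examples are not reported here. The number of arrays limits precision. Alternatives covered scaling, the dim filter, probe sets, the replicate number as a block, array weights, the variance model, pseudocount, threshold and each array left out. Promoter sequences are from RefSeq (GRCm38.p6).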

Additional observations from a re-analysis of the deposited data

How the results depend on the processing

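Of the 10 genes 0 passed under each of 18 alternatives in limma, and of their 26 probe sets 0 under each of the 15 run on probe sets. Over all genes 13 passed in the main analysis, 20 with averaged probe sets, 21 with a variance trend, 215 with array weights, 21 at an adjusted p of 0.1, and with 1 array left out between 4, when it was d/d replicate 1, and 91, when it was f/f replicate 3. Over all genes tested, same-numbered deviations from the group means correlated at -0.0033, -0.14 and -0.47. Of the 6 arrays, 0 correlated best with their own number. With 3 arrays per genotype this cannot exclude that replicate numbers pair the arrays. As a block, the number lowered the standard error from 0.27 to 0.13 for Socs3 and from 0.31 to 0.13 for Socs2. It raised that of Ghr from 0.11 to 0.13. With the replicate number as a block 6 genes passed, 5 of them among the 13, and 1 acute phase target, Saa2; of the male-biased genes 1, Moxd1, passed with array weights, at a threshold of 0.1 and when f/f replicate 3 was removed (range 0 to 1 over such fits).

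Signs of small differences turned. With averaged probe sets Jak2 had 0.068, Stat5b -0.0032, Socs2 0.040, Bcl6 0.069 and Ptpn11 -0.32. With array weights Stat5b had -0.018, Tyk2 -0.012, Ptpn11 -0.053, Igfals 0.031, Egfr 0.15 and Stat5a probe set 1450259_a_at -0.071, and with values as deposited Socs1 had -0.018 and Tyk2 -0.021. The array weight of f/f replicate 3 was 0.178, against 0.963 to 1.84 for the other arrays. The cause of the turned signs was not tested. With 1 array left out, the ranges that crossed 0 were -0.090 to 0.094 for Stat3, -0.031 to 0.072 for Stat5b, -0.046 to 0.079 for Socs1, -0.33 to 0.27 for Socs2, -0.054 to 0.28 for Cish, -0.049 to 0.059 for Tyk2, -0.080 to 0.13 for Ptpn11, -0.21 to 0.036 for Il6st, -0.033 to 0.017 for Igf1, -0.26 to 0.057 for Igfals, -0.20 to 0.15 for Egfr and -0.14 to 0.10 for Hp. They were -0.25 to 0.20 for Socs2 probe set 1418507_s_at, -0.075 to 0.093 for 1446085_at, -0.12 to 0.030 for Stat5b 1422102_a_at, -0.082 to 0.11 for Stat3 1424272_at, -0.070 to 0.068 for Stat3 1460700_at and -0.097 to 0.16 for Stat5a 1450259_a_at. Ghr, Stat5a and Socs3 kept their sign under all 18 alternatives, at 0.083 to 0.23, -0.13 to -0.0011 and -0.99 to -0.51.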
